A study of Mus musculus with 8 samples.

Results

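Cathepsins are peptidases that work mainly inside endosomes and lysosomes. The 10 genes described here, Ctsa, Ctsb, Ctsc, Ctsd, Ctse, Ctsh, Ctsk, Ctsl, Ctss and Ctsz, were taken by gene symbol from the count tables, 10 of 53735 genes listed. All 10 were among the 14418 genes with enough reads to be tested. RNA-seq measured mRNA in macrophages grown from bone marrow (BMDMs) of MKL1 knockout and control mice, and asked how global loss of MKL1, a coactivator of serum response factor also named MRTF-A, alters the macrophage transcriptome. The WT group was Mkl1+/+, Apoe-/- (libraries 1 to 4) and the KO group was Mkl1-/-, Apoe-/- (libraries 5 to 8). Both groups were male mice, 6 months old, that had received angiotensin II (Ang II) from implanted pumps for 7 days before marrow was taken, and marrow cells were then differentiated for 7 days. Apoe deletion and Ang II were thus shared by all groups, and no library without them was analysed. Mice were on the C57BL/6J background, and WT controls came from the same litters or from matings of siblings. The knockout was global, so all cells of the KO donors carried it. Experiment 1 held libraries 1, 2, 5 and 6 and experiment 2 held libraries 3, 4, 7 and 8, so each experiment had 2 WT and 2 KO libraries.

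Most cathepsins are made as inactive precursors, are tagged with mannose 6-phosphate, and are activated by cleavage in the acid lysosome. Cathepsins D and E are aspartic peptidases, with an active site built on a pair of aspartates. Cathepsins B, C, H, K, L, S and Z are cysteine peptidases of the papain family, which cystatins and some serpins inhibit, and cathepsin A is a serine carboxypeptidase. In macrophages they degrade proteins taken up by endocytosis. Cathepsins S and L cut the invariant chain of MHC class II, and cathepsins B, K, L and S can degrade elastin or collagen when released. Cathepsin E differs from most of the family in that it is found largely in endosomes and is made by few tissues.

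Ctse, the gene with the widest range between libraries, and Ctsd, the other aspartic peptidase, have related coding sequences around their first active site. Both stretches are shown because reads could be assigned to the wrong one of the pair if the genes were alike over the length of a read. Each is 60 bases, coding bases 265 to 324, from the GENCODE M21 annotation on GRCm38, and capitals mark the codons of the catalytic Asp-Thr-Gly.
Ctse: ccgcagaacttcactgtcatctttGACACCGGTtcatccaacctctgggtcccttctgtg
Ctsd: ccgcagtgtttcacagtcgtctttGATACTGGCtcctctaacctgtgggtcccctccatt
Of these 60 bases, 45 were identical. The longest run of bases shared by the whole coding sequences of Ctsd and Ctse was 14 bases, and 0 of 3167 windows of 50 bases in the exons of Ctse also lay in an exon of another gene. Ctse (chr1:131638306-131675505, plus strand) and Ctsd (chr7:142375911-142388038, minus strand) lie on different chromosomes.

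The depth was 33977799 to 41584540 counts per library. Mkl1, the targeted gene, had 25.6, 27.1, 26.8 and 29.5 CPM (counts scaled to library size) in the 4 WT libraries, in order, and 19.5, 20.9, 14.6 and 10.4 CPM in the 4 KO libraries. Each KO library was below each WT library, but Mkl1 mRNA was still counted in all of them, and the counts cover the whole gene rather than the deleted part. Apoe, deleted in all mice, was still counted, at 2.82 to 8.35 CPM in WT and 4.48 to 22.7 CPM in KO. The WT group of experiment 1 resembled the KO group of experiment 2 more than any other pair of groups. Across all genes tested, the SD of their log2 difference was 0.41, against 0.84 to 0.98 for the other 5 pairs. Over the 10 cathepsins the order was another. The root mean square log2 difference was 1.65 for that pair and smallest, 0.48, between the WT groups. Most of the 1.65 came from Ctse, with means of 1.36 CPM in WT of experiment 1 and 56.2 CPM in KO of experiment 2. The measure was not taken without Ctse, so it says little of the other members as a set. The groups are named as labelled throughout. Marker lists moved with experiment as well as genotype. The summed level of 9 fibroblast markers was 7.67 to 17.3 CPM in WT of experiment 1, 195 to 256 CPM in KO of experiment 1, 9.39 to 10.1 CPM in WT of experiment 2 and 2.68 to 18.7 CPM in KO of experiment 2. The 10 macrophage markers summed to 27070 to 36460 CPM in WT and 20280 to 22180 CPM in KO of experiment 1, and to 15990 to 21380 CPM in WT and 18500 to 26230 CPM in KO of experiment 2. Most of each sum was Lyz2 (7600 to 23920 CPM) and Adgre1 (1668 to 8322 CPM). Of the 10 macrophage markers, 6 rose and 3 fell in experiment 1, where edgeR called 55.1% of all genes tested. Lyz2 and Adgre1 were among the 3 that fell, so the sum fell there although most markers rose. In experiment 2, 2 rose and 2 fell, where edgeR called 15.8%. Adgre1, which encodes F4/80, fell by 2.11 in experiment 1 and rose by 0.91 in experiment 2 on the log2 scale (edgeR adjusted p = 6.39e-06 and 0.0258). Mertk, a receptor for engulfing dead cells, was the 1 macrophage marker called over both experiments, at 1.27 (edgeR adjusted p = 0.0219, with 7.12% of all genes called). For B cell markers the sum was 28.1 to 30.1 CPM in KO of experiment 1 and 3.99 to 10.4 CPM elsewhere. For dendritic cell markers it was 20.1 to 47.7 CPM in KO of experiment 1 and WT of experiment 2 and 1.82 to 4.10 CPM in the other 2 groups, which was nearly all Itgax, a gene that macrophages also express, while Zbtb46 stayed at 0.34 to 0.66 CPM. Neutrophil, T and NK cell, and mast cell markers summed to at most 13.8 CPM in any library, and erythroid markers to at most 0.43 CPM, with Alas2 and Slc4a1 at 0. The part of these other cells in the cathepsin results was not tested. In bulk RNA, fewer cells of a type and less RNA per cell cannot be told apart.

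Ctsb and Ctsd were among the most abundant mRNAs of these cells. Together the 10 cathepsins took 1.94% to 2.18% of all counts in the WT libraries and 2.21% to 3.02% in the KO libraries. The ranges nearly met, with 2.18% in WT library 2 and 2.21% in KO library 8. Taken singly, 6.46% of all genes tested had all KO libraries above all WT libraries. Ctsb, the largest part of the total, took 0.90% to 1.03% in WT and 0.97% to 1.5% in KO, which overlapped. It ranked 4 to 6 among all genes by CPM. Ctsd ranked 11 to 20.

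Levels of different genes were compared per length, as CPM per kilobase of exon (FPKM). Ctss had the highest mean over the 8 libraries, 2535 ± 702 FPKM (SD, n = 8), followed by Ctsd with 1922 ± 373 FPKM and Ctsb with 1887 ± 364 FPKM. These 3 differed by less than their spread. Ctsz followed with 815 ± 124 FPKM, clear of the genes on either side of it by more than their SDs. Ctsl had 263 ± 161 FPKM and Ctsa 213 ± 16.9 FPKM, which differed by less than the spread of Ctsl. Lower in the order were Ctsc with 73.4 ± 15.8 FPKM and Ctsh with 32.2 ± 3.59 FPKM. Ctsk, with 7.78 ± 2.60 FPKM, and Ctse, with 7.01 ± 9.80 FPKM, were the lowest and could not be ordered, since Ctse ran from 0.19 to 25.6 FPKM between libraries. The ratio of the highest to the lowest library was 134 for Ctse, 6.12 for Ctsl, 2.85 for Ctsk and 2.45 for Ctss. For the other 6 it lay between 1.27 (Ctsa) and 1.97 (Ctsc).

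**Figure D1:**
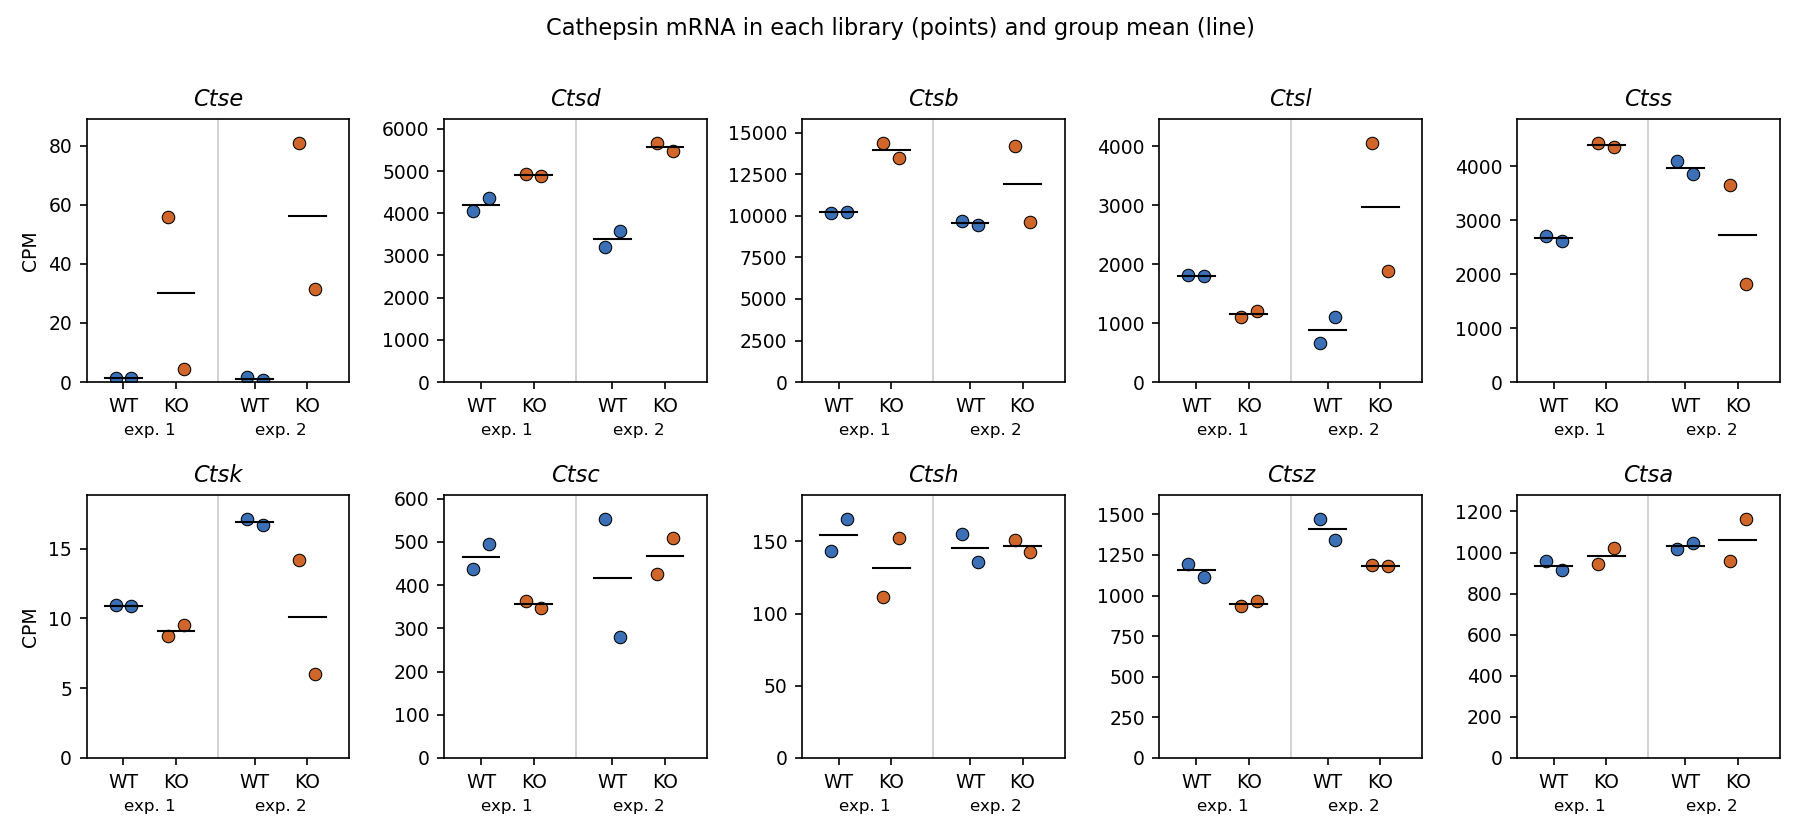
Level of each cathepsin in CPM (vertical axes start at 0 and differ between panels) in the 2 WT (blue) and 2 KO (orange) libraries of each experiment, with a line at the mean. Ctse and Ctsd lay higher in all 4 KO libraries than in any WT library, and for Ctsl and Ctss the order of KO and WT turned between the experiments.

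Ctse, the endosomal aspartic peptidase, was low in WT and higher in KO. It had 1.38, 1.35, 1.73 and 0.60 CPM in the 4 WT libraries, in order, which were 56, 46, 63 and 21 counts. In the KO libraries, 5 to 8, it had 55.9, 4.27, 81.0 and 31.4 CPM, which were 2068, 171, 3323 and 1311 counts. All 4 KO libraries were above all 4 WT libraries, but KO library 6 lay far nearer to the WT libraries than the other KO libraries did. Relative to the mean of the WT libraries of the same experiment, Ctse was 41.0 times as high in KO library 5, 3.14 times in library 6, 69.6 times in library 7 and 27.0 times in library 8. The pair of KO libraries in experiment 1 thus differed by 13.1 times, while the pair of WT libraries differed by 1.02 times.

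With the experiment as a term in the fit, Ctse rose by 5.02 on the log2 scale (standard error 0.91, edgeR quasi-likelihood test, Benjamini-Hochberg adjusted p = 0.0248). It was the 1 cathepsin past the threshold of 0.05 in that comparison, in which 7.12% of all genes tested were called (3.72% higher and 3.41% lower in KO). In experiment 2 the rise was 5.58 (standard error 0.72, edgeR adjusted p = 0.0163). In experiment 1 the log2 fold change was 4.44 with a standard error of 2.03 and did not pass (edgeR adjusted p = 0.207). The effects in the experiments differed by 1.12 (standard error 1.69, edgeR adjusted p = 0.622). This difference was 3.96 without KO library 5 (edgeR adjusted p = 0.0379) and 0.23 without KO library 6 (0.877), 0.32 without KO library 7 (0.901), 0.57 without WT library 4 (0.854) and 2.10 without WT library 3 (0.566). With no filter on low counts it was 1.15 and was called (edgeR adjusted p = 3.83e-05). In experiment 1 the test without KO library 5 gave 1.64 (edgeR adjusted p = 0.000461) and without KO library 6 gave 5.34 (edgeR adjusted p = 2.44e-09). The call over both experiments was lost when any 1 of WT libraries 1 to 4 or KO libraries 5 and 7 was left out, with edgeR adjusted p between 0.0644 and 0.115 and a log2 fold change between 4.31 and 5.15. In experiment 2 it was lost without WT library 3 (edgeR adjusted p = 0.0786) or WT library 4 (0.0959), and the log2 fold changes were then 6.53 and 5.02. With no filter on low counts edgeR no longer called Ctse over both experiments (adjusted p = 0.085) or in experiment 2 (0.144), limma-voom did not call it over both (adjusted p = 0.0902), and neither did edgeR without the experiment term (adjusted p = 0.142). DESeq2 called it in experiment 1 (adjusted p = 0.00655).

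Ctsd encodes the main aspartic peptidase of the lysosome and was the other member for which no KO library overlapped the WT libraries. It had 4051, 4364, 3209 and 3575 CPM in WT and 4921, 4880, 5675 and 5468 CPM in KO. KO was higher throughout, with a wider gap in experiment 2, where WT was lowest and KO highest. Separation of this kind, all KO above all WT, was found in 6.46% of all genes tested (6.25% had all KO below all WT), against 2 of the 10 members. Members were chosen with earlier results of these data known, so these shares do not test the group. Ctsd rose in experiment 2 by 0.72 on the log2 scale (standard error 0.17, edgeR adjusted p = 0.0474), and gave 0.21 in experiment 1 (standard error 0.08, edgeR adjusted p = 0.0533). In experiment 1 it passed under 5 of 10 alternatives, DESeq2 (adjusted p = 0.0103), limma-voom (0.0347), upper-quartile scaling (0.0114), at least 10 counts in every library (0.0442) and without WT library 2 (0.0498). Over both experiments it gave 0.47 (standard error 0.14, edgeR adjusted p = 0.0925), and DESeq2 called it there (adjusted p = 0.00644), as did the edgeR test of the mean of both effects (adjusted p = 0.00481). The effect was larger in experiment 2 by 0.50 (standard error 0.16, edgeR adjusted p = 0.0391). The experiment 2 call was lost without any 1 of its 4 libraries (WT 3 and 4, KO 7 and 8; edgeR adjusted p 0.124 to 0.211, log2 fold change 0.64 to 0.80), and the call on the difference was lost without WT library 1, 2 or 3 or KO library 5 or 6 (edgeR adjusted p 0.0714 to 0.147) and with upper-quartile scaling (0.0575). Of the 50-base windows in Ctsd exons, 32.4% also lie in Gm49369, an overlapping gene model that the count tables do not list.

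Relative to Ctsd, the level of Ctse in CPM was 0.034%, 0.031%, 0.054% and 0.017% in WT libraries 1 to 4 and 1.14%, 0.088%, 1.43% and 0.57% in KO libraries 5 to 8. Ctse therefore stayed a minor aspartic peptidase mRNA in each library, including those where it was highest.

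**Figure D2:**
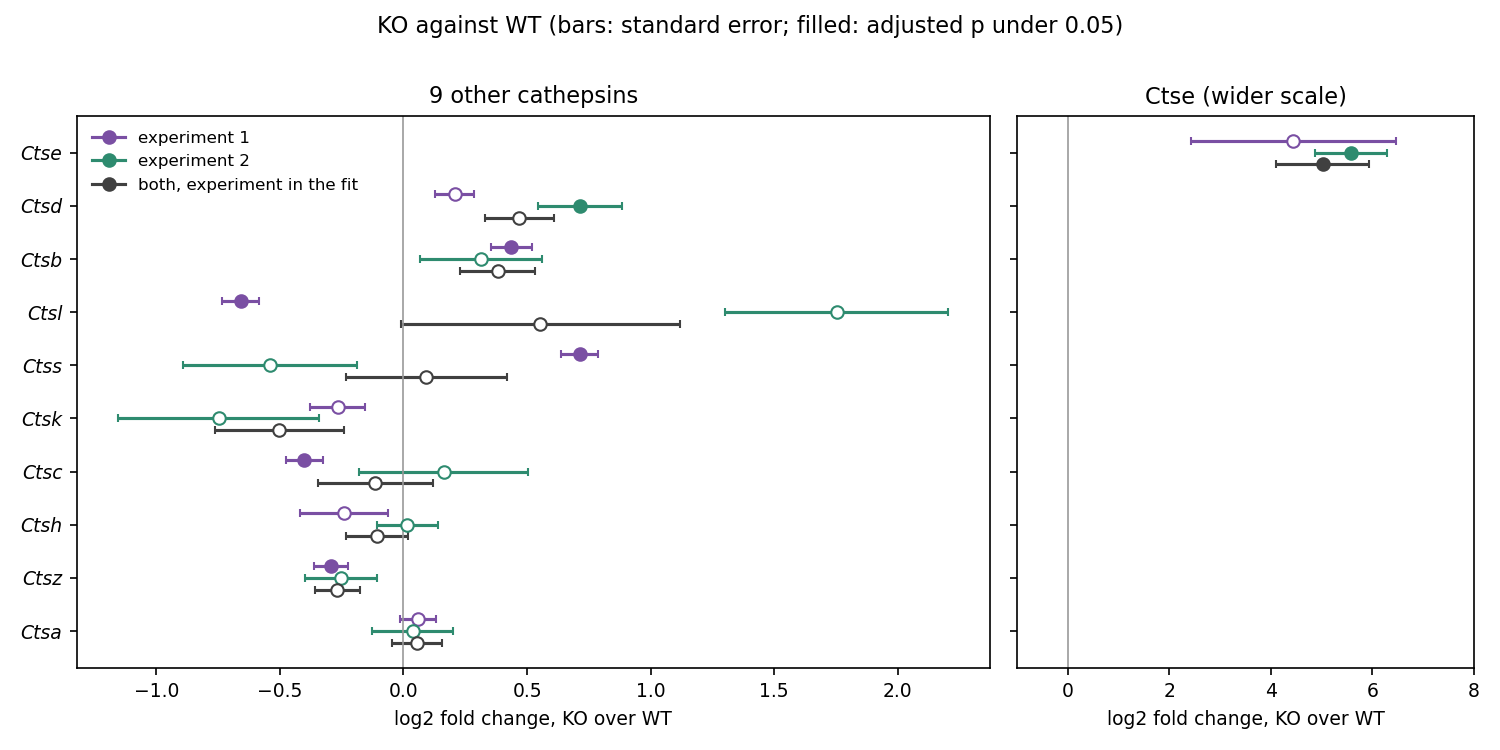
Log2 fold change of KO over WT (horizontal axis) for each cathepsin in experiment 1, experiment 2 and over both, with the standard error as bars and filled points where the adjusted p was under 0.05. Ctse is drawn on its own wider axis, at 4.44, 5.58 and 5.02. Ctsl and Ctss lie on opposite sides of 0 in the 2 experiments.

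Across the 10 members, 5 passed the threshold in experiment 1, 2 higher (Ctsb and Ctss) and 3 lower (Ctsc, Ctsl and Ctsz) in KO. In that experiment 55.1% of all genes tested were called (27% higher, 28.1% lower), so this count is near the background. In experiment 2, 2 members passed, both higher (Ctsd and Ctse), where 15.8% of all genes were called (7.52% higher, 8.29% lower). No member passed in both experiments by this edgeR fit, against 4.38% of all genes with the same direction and 6.34% with opposite directions. DESeq2 called Ctsd and Ctse in both with the same direction and Ctsl in both with opposite directions. Ctsd also passed in both with limma-voom, with upper-quartile scaling and with at least 10 counts in every library, and Ctse in the fit of all 4 groups together. Of the 14418 genes, DESeq2 called 6763 in experiment 1 and 3135 in experiment 2, limma-voom 7887 and 2244, upper-quartile scaling 7983 and 2366. The fit of 4 groups called 5974 and 4899. The shares of all genes called in both experiments by these settings were not taken. Libraries of KO and WT did not overlap in experiment 1 for 4 members above (Ctsb, Ctsd, Ctse and Ctss) and 4 below (Ctsc, Ctsk, Ctsl and Ctsz), against 41.2% and 38.7% of all genes. In experiment 2 they did not overlap for 3 above (Ctsd, Ctse and Ctsl) and 3 below (Ctsk, Ctss and Ctsz), against 32.9% and 32.5%. The sign was the same in both for 6 members (Ctsa, Ctsb, Ctsd, Ctse, Ctsk and Ctsz) and opposite for 4 (Ctsc, Ctsh, Ctsl and Ctss). The median log2 fold change of the members was -0.09 in experiment 1 and 0.10 in experiment 2, against 0.01 in both for all genes tested. When the 4 groups were fitted together over all 8 libraries, sharing 1 estimate of spread, the count in experiment 1 fell from 5 to 1, and the 1 was Ctse (edgeR adjusted p = 0.0213). Ctsb (0.0869), Ctsc (0.291), Ctsl (0.179), Ctss (0.0725) and Ctsz (0.0508) then had edgeR adjusted p above the threshold.

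Among the cysteine endopeptidases, Ctsb was the most abundant by CPM. It had 10190, 10261, 9684 and 9479 CPM in WT and 14408, 13511, 14215 and 9607 CPM in KO. KO libraries 5, 6 and 7 were above all WT libraries, and KO library 8 lay among them. Ctsb rose in experiment 1 by 0.44 on the log2 scale (standard error 0.08, edgeR adjusted p = 0.0029) and gave 0.31 in experiment 2 (standard error 0.25, edgeR adjusted p = 0.421). The latter was 0.0034 without KO library 7 (edgeR adjusted p = 0.994) and 0.57 without KO library 8 (edgeR adjusted p = 0.226). Over both experiments it gave 0.38 (standard error 0.15, edgeR adjusted p = 0.176). Of its 50-base windows, 12.1% are shared with Fdft1, which overlaps it on the opposite strand.

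Ctsl and Ctss are the peptidases that complete the breakdown of invariant chain in different antigen-presenting cells. Ctsl had 1817, 1790, 664 and 1102 CPM in WT and 1099, 1207, 4059 and 1891 CPM in KO. KO was the lower group in experiment 1 and the higher group in experiment 2, without overlap in either. Ctsl fell by 0.66 on the log2 scale in experiment 1 (standard error 0.07, edgeR adjusted p = 0.000175) and gave 1.75 in experiment 2 (standard error 0.45, edgeR adjusted p = 0.0625). The effects differed by 2.40 (standard error 0.50, edgeR adjusted p = 0.00835). Ctsl passed this test of the difference under all 13 alternatives. Of its 50-base windows, 26.3% are shared with other genes, and the gene models Gm47123 and Gm49230, which the count tables do not list, overlap it. In experiment 2 DESeq2 called Ctsl (adjusted p = 6.88e-05), as did the edgeR fit of 4 groups together (adjusted p = 0.00935). Without KO library 7 the value in experiment 2 was 1.10 (edgeR adjusted p = 0.147). Over both experiments the log2 fold change was 0.55 (standard error 0.56, edgeR adjusted p = 0.597), and it ran from 0.097 without WT library 3 to 0.94 without KO library 5.

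Ctss had 2715, 2610, 4088 and 3860 CPM in WT and 4437, 4365, 3655 and 1810 CPM in KO. It ran opposite to Ctsl: KO was higher in experiment 1, and both KO libraries were lower in experiment 2, where KO library 7 was close to WT. Ctss rose by 0.71 in experiment 1 (standard error 0.07, edgeR adjusted p = 0.000108) and gave -0.54 in experiment 2 (standard error 0.35, edgeR adjusted p = 0.336). The latter was -1.13 without KO library 7 (edgeR adjusted p = 0.0618) and -0.12 without KO library 8 (edgeR adjusted p = 0.748). The effects differed by -1.27 (standard error 0.39, edgeR adjusted p = 0.0367). That call was lost without WT library 1, 2, 3 or 4 or KO library 5 or 6 (edgeR adjusted p 0.0751 to 0.117). Experiments differed in the effect of KO for 3 members, 2 larger (Ctsd and Ctsl) and 1 smaller (Ctss) in experiment 2, where 41.6% of all genes tested were called (21% larger, 20.6% smaller).

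The ratio of Ctsl to Ctss in CPM compares libraries rather than the genes, because their exons span 6.49 kb and 1.36 kb. In FPKM, Ctsl was below Ctss in every library, with 626 against 2692 in KO library 7 and 291 against 1333 in KO library 8. The CPM ratio was 0.67 and 0.69 in WT of experiment 1 and 0.25 and 0.28 in KO of experiment 1. In experiment 2 it was 0.16 and 0.29 in WT and 1.11 and 1.04 in KO. The groups were apart except that both KO libraries of experiment 1 lay between the WT libraries of experiment 2. The mean of Ctsl in WT was 0.49 times as high in experiment 2 as in experiment 1, and that of Ctss 1.49 times. The labels say of the experiments only that they are batches, so what differed between them cannot be told apart from this change.

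**Figure D3:**
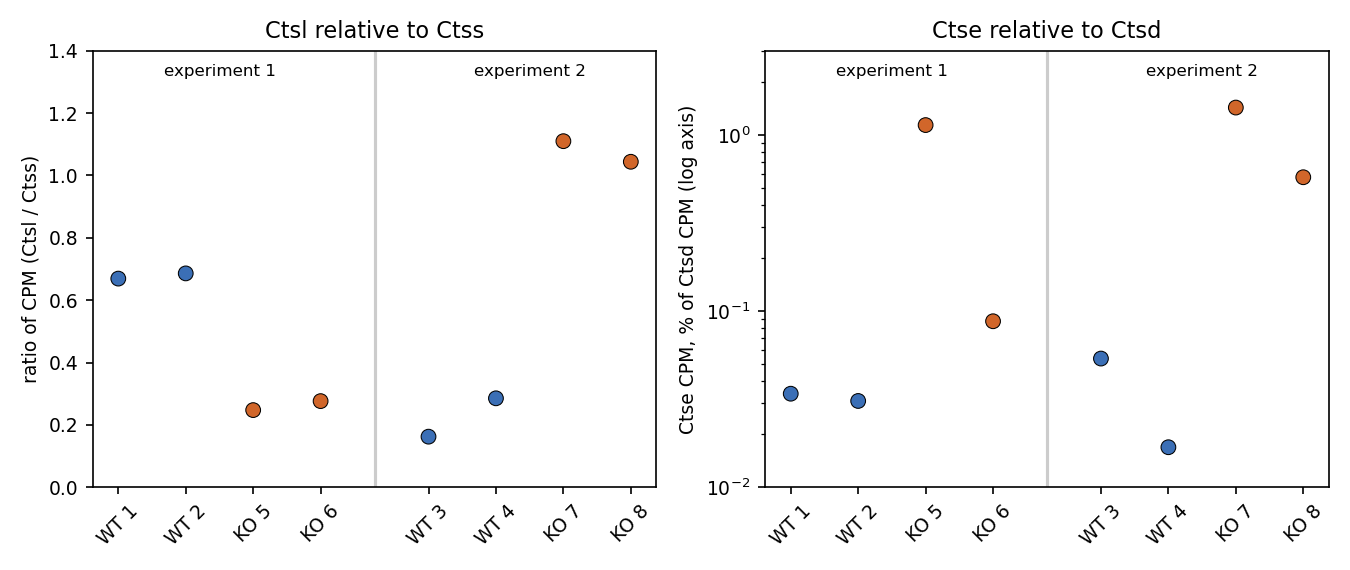
Ratio of Ctsl to Ctss CPM (left) and Ctse CPM as a percentage of Ctsd CPM (right, log axis) in each library, WT blue and KO orange, one point per library. Neither is corrected for exon length, so a ratio above 1 on the left does not mean more Ctsl than Ctss mRNA. On the left KO was below WT in experiment 1 (0.25 and 0.28 against 0.67 and 0.69) and above it in experiment 2 (1.11 and 1.04 against 0.16 and 0.29), and on the right each KO library was above each WT library.

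The promoters of the 3 members whose genotype effect differed between the experiments are shown to set their sequences side by side. Each window is RefSeq sequence on GRCm38.p6, 250 bases before to 50 after the RefSeq start, written 5′ to 3′ along the strand of the gene. Capitals mark the E-box core CACGTG or, in Ctss, the core GAGGAAG of ETS factors such as PU.1, which stands there as its reverse complement. E-boxes of this kind are bound by the MiT family of lysosomal regulators, among others. The windows are chr7:142387778-142388077 (minus strand) for Ctsd, chr13:64370471-64370770 (minus strand) for Ctsl and chr3:95526536-95526835 (plus strand) for Ctss. For Ctsd and Ctsl the RefSeq start lies inside the GENCODE M21 gene model used for the counts per length, so most of the Ctsd window and all of the Ctsl window are within that model.
Ctsd: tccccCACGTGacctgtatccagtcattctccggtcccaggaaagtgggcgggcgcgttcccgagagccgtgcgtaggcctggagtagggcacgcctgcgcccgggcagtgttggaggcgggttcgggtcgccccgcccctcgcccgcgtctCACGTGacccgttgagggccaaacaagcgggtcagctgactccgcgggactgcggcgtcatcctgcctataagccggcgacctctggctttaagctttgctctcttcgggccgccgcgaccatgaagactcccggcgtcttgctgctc
Ctsl: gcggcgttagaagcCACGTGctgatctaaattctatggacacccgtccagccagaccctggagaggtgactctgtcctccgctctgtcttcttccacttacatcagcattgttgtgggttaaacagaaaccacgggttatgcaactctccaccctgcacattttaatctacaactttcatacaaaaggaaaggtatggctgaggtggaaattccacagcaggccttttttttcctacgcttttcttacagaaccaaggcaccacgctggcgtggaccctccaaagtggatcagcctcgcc
Ctss: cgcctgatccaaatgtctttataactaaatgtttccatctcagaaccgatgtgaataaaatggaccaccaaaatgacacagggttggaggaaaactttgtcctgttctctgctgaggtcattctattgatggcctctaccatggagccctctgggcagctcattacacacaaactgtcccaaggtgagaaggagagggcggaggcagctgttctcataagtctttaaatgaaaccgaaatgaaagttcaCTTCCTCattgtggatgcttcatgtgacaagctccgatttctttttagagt
Both strands were searched for 4 motifs in the 7 members with a RefSeq window, which were all but Ctsb, Ctse and Ctsh. CACGTG was found 2 times in Ctsd, 1 time in Ctsl and 2 times in the second of the windows of Ctsa, and in 7.15% of all 32851 promoter windows. GAGGAAG was found 2 times in Ctsk, 1 time in Ctss and 2 times in Ctsc, and in 13.6% of all windows. TGANTCA, the AP-1 site, and the CArG box, the site of serum response factor, were in none of the members' windows, and in 7.81% and 1.63% of all windows. No 2 of these motifs overlapped in the windows of the members. A match or its absence describes these letters in this window and nothing about binding.

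Ctsk, the collagen-degrading peptidase best known from osteoclasts, was low. It had 10.9, 10.8, 17.1 and 16.7 CPM in WT and 8.70, 9.54, 14.2 and 6.02 CPM in KO. Within each experiment KO was below WT, although KO library 7 was above the WT libraries of experiment 1. The log2 fold change was -0.27 in experiment 1 (standard error 0.11, edgeR adjusted p = 0.0738), -0.75 in experiment 2 (standard error 0.41, edgeR adjusted p = 0.266) and -0.50 over both (standard error 0.26, edgeR adjusted p = 0.287). In experiment 2 it was -1.49 without KO library 7 (edgeR adjusted p = 0.0378) and -0.26 without KO library 8 (edgeR adjusted p = 0.357), so its size rested on library 8. Ctsk and Ctss are neighbours, with a gap of 17.4 kb between them on chromosome 3 (Ctsk at chr3:95499256-95509362, Ctss at chr3:95526786-95556403, both plus strand). In experiment 1 Ctss rose and Ctsk had a log2 fold change below 0, while in experiment 2 both were below 0.

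Ctsc, Ctsh and Ctsz encode cysteine peptidases that act from the ends of a chain: cathepsin C removes dipeptides and activates granule serine proteases, cathepsin H is chiefly an aminopeptidase, and cathepsin Z is a carboxypeptidase. Ctsz was lower in KO within each experiment. It had 1196, 1116, 1475 and 1345 CPM in WT and 935, 967, 1185 and 1182 CPM in KO. Over both experiments the groups overlapped, because the KO libraries of experiment 2 reached the level of WT in experiment 1. Ctsz fell in experiment 1 by 0.29 on the log2 scale (standard error 0.07, edgeR adjusted p = 0.00778) and gave -0.25 in experiment 2 (standard error 0.15, edgeR adjusted p = 0.285). Without KO library 5 the call in experiment 1 was just lost (-0.27, edgeR adjusted p = 0.0506). Over both it gave -0.27 (standard error 0.09, edgeR adjusted p = 0.123), and DESeq2 called it there (adjusted p = 0.000353), as did edgeR when the mean of both effects was tested with the interaction in the fit (adjusted p = 0.0222).

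Ctsc had 438, 494, 554 and 281 CPM in WT and 363, 348, 425 and 509 CPM in KO. It was lower in both KO libraries of experiment 1, and in experiment 2 both KO libraries lay between the WT libraries, which differed by 1.97 times. Ctsc fell in experiment 1 by 0.40 (standard error 0.07, edgeR adjusted p = 0.00231) and gave 0.16 in experiment 2 (standard error 0.34, edgeR adjusted p = 0.77). The effects differed by 0.55 (standard error 0.39, edgeR adjusted p = 0.289). That difference was 1.15 without WT library 3 (edgeR adjusted p = 0.00559) and 0.14 without WT library 4 (0.564), so it rested on WT libraries that lay far apart. With no filter on low counts it was 0.58 and was called (edgeR adjusted p = 0.00353). In experiment 2 alone the value was 0.73 without WT library 3, -0.25 without WT library 4, 0.29 without KO library 7 and 0.025 without KO library 8, none of them called.

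Ctsh and Ctsa were the steadiest members. Ctsh had 144, 166, 155 and 136 CPM in WT and 112, 152, 151 and 143 CPM in KO, with all but KO library 5 inside the WT range. Its log2 fold change was -0.24 in experiment 1 (standard error 0.18, edgeR adjusted p = 0.319) and 0.01 in experiment 2 (standard error 0.12, edgeR adjusted p = 0.948). In experiment 1 it passed at -0.48 without KO library 6 (edgeR adjusted p = 0.00466) and was -0.034 without KO library 5 (edgeR adjusted p = 0.801), so the value rested on library 5. Ctsa, whose product cathepsin A also protects lysosomal galactosidase and neuraminidase, had 957, 917, 1019 and 1049 CPM in WT and 944, 1024, 957 and 1166 CPM in KO. The groups overlapped, and the log2 fold change was 0.06 in experiment 1 (standard error 0.07, edgeR adjusted p = 0.515) and 0.04 in experiment 2 (standard error 0.16, edgeR adjusted p = 0.895). Ctsa overlaps Pltp and Neurl2 on the opposite strand, and 11.6% of its 50-base windows are shared with other genes. The library kit keeps the strand, but the strand setting of the counting is not given in the sources used here.

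Of 13 other cathepsin genes, 2 had enough reads to be tested. Ctso, a ubiquitous cysteine cathepsin, had 85.6, 85.1, 68.5 and 68.3 CPM in WT and 69.8, 67.1, 88.7 and 84.6 CPM in KO, and fell in experiment 1 by 0.33 (edgeR adjusted p = 0.00155), while experiment 2 gave 0.34 (edgeR adjusted p = 0.0787). Ctsf, a cysteine cathepsin of the lysosome, had 8.70, 9.15, 7.78 and 7.38 CPM in WT and 23.8, 15.8, 6.88 and 6.02 CPM in KO, and rose in experiment 1 by 1.14 (edgeR adjusted p = 0.00528) with -0.23 in experiment 2 (edgeR adjusted p = 0.397). For both, the effects in the experiments differed (edgeR adjusted p = 0.00207 and 0.00661), as 41.6% of all genes did, and 55.1% of all genes were called in experiment 1. Of the rest, 9 had no count in any library, Cts7 had 2 counts in all, and Ctsg, the serine peptidase of neutrophil granules, had 17.

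Cst3, Cst7 and Serpina3g, inhibitors of cysteine or serine peptidases, rose in experiment 1 and fell in experiment 2. Of 19 inhibitors listed, 16 were found and 9 tested. In experiment 1, 5 rose and 2 fell (55.1% of all genes were called), and in experiment 2, 1 rose and 5 fell (15.8% of all genes). The effect was smaller in experiment 2 for 5 and larger for 1 (41.6% of all genes differed). Cst3, cystatin C, the main secreted inhibitor of cysteine cathepsins, had 314, 323, 697 and 650 CPM in WT and 840, 737, 345 and 227 CPM in KO. It rose in experiment 1 by 1.30 on the log2 scale (edgeR adjusted p = 8.01e-06) and fell in experiment 2 by 1.24 (edgeR adjusted p = 0.0273). Cst7, cystatin F, which acts inside the endosome on cathepsins C and others, gave 3.52 and -4.69 in the 2 experiments (edgeR adjusted p = 2.92e-05 and 0.00886). Serpinb6a was the 1 inhibitor that passed over both experiments, at 0.60 (standard error 0.13, edgeR adjusted p = 0.0365), with 620, 620, 351 and 411 CPM in WT and 888, 760, 698 and 622 CPM in KO. Ctla2b, which resembles a cathepsin propeptide, was at or below 1.57 CPM in all libraries. At that low level it rose in experiment 1 by 1.62 (edgeR adjusted p = 0.01) and gave 0.95 in experiment 2 (edgeR adjusted p = 0.374).

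**Figure D4:**
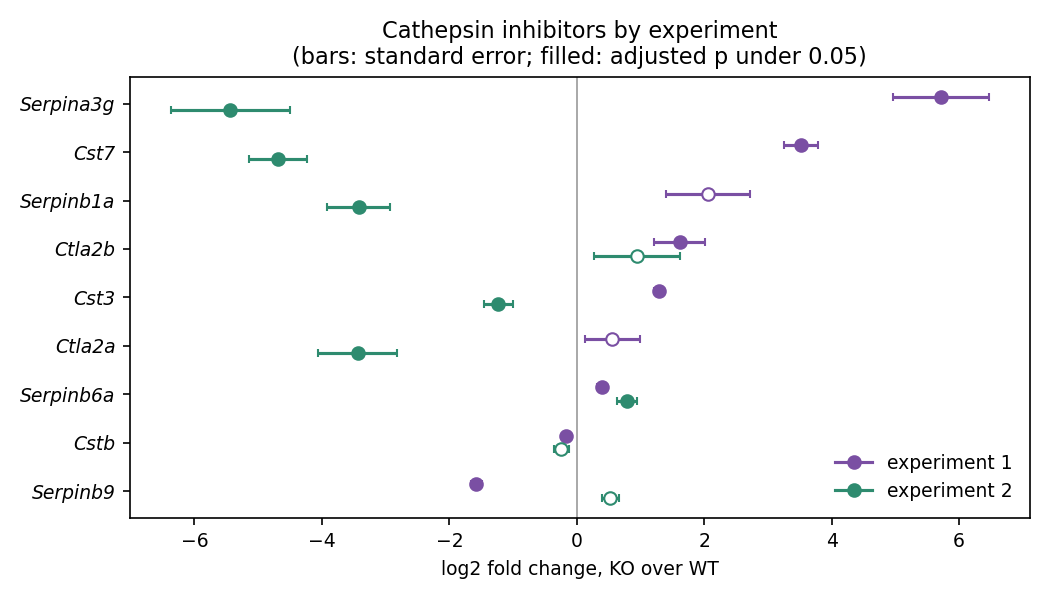
Log2 fold change of KO over WT (horizontal axis) for the 9 cathepsin inhibitors tested, in experiment 1 (purple) and experiment 2 (green), with standard errors as bars and filled points where the adjusted p was under 0.05. Cst3, Cst7 and Serpina3g passed in both experiments with opposite signs, and Serpinb6a passed in both with the same sign.

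Genes that process cathepsin precursors or carry them to the lysosome were tested in full, 14 of 14. In experiment 1, 7 rose and 2 fell, where 27% of all genes rose and 28.1% fell. In experiment 2 the 1 called, M6pr, fell, where 8.29% of all genes fell and 15.8% were called. M6pr, the cation-dependent mannose 6-phosphate receptor, fell over both experiments by 0.77 (standard error 0.10, edgeR adjusted p = 0.00746). It had 515, 490, 791 and 709 CPM in WT and 306, 329, 398 and 419 CPM in KO, with no overlap. Psap, prosaposin, which travels with procathepsin D, rose over both by 0.56 (standard error 0.12, edgeR adjusted p = 0.0363), from 5114, 5149, 4302 and 4664 CPM in WT to 7036, 7138, 7658 and 6459 CPM in KO. Lgmn, legumain, which trims cathepsins B, H and L, had 1248, 1603, 961 and 925 CPM in WT and 2032, 1697, 1456 and 1342 CPM in KO, and gave 0.48 (standard error 0.13, edgeR adjusted p = 0.0691).

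Of 8 other lysosomal peptidases tested, 5 rose in experiment 1 and 1, Napsa, fell in experiment 2, where 27% of all genes rose and 8.29% fell, respectively. Scpep1, a serine carboxypeptidase, had 257, 255, 302 and 236 CPM in WT and 340, 329, 326 and 294 CPM in KO and gave 0.30 over both (edgeR adjusted p = 0.141). Tpp1, the tripeptidyl peptidase, gave 0.22 (edgeR adjusted p = 0.244), and Prcp, a prolyl carboxypeptidase, 0.22 (edgeR adjusted p = 0.0799). Of 8 tested regulators of lysosomal genes, 3 rose in experiment 1, where 27% of all genes rose, and in experiment 2, 1 rose and 2 fell (7.52% and 8.29% of all genes). Flcn, folliculin, which acts on the MiT factors, rose over both by 0.66 (standard error 0.13, edgeR adjusted p = 0.0279), with 74.4, 77.9, 54.4 and 53.3 CPM in WT and 109, 104, 81.1 and 112 CPM in KO. Mitf and Tfe3, members of the MiT family, gave -0.32 and -0.07 over both (edgeR adjusted p = 0.383 and 0.649). Tfeb rose in experiment 1 by 0.67 (edgeR adjusted p = 0.000195), and Tfec gave 1.14 and -2.93 in the experiments (edgeR adjusted p = 1.55e-05 and 0.00684). Mitf fell in experiment 2 by 0.79 (edgeR adjusted p = 0.0321), and its effects in the experiments differed by -0.93 (edgeR adjusted p = 0.00651).

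All 9 class II genes rose in experiment 1 and 6 fell in experiment 2, where H2-DMa, H2-DMb2 and Ifi30 did not pass, and for all 9 the effect was smaller in experiment 2. Of all genes tested, 27% rose in experiment 1, 8.29% fell in experiment 2 and 20.6% had a smaller effect there. Cd74, the invariant chain that cathepsin S cuts, had 7.91, 8.03, 413 and 87.3 CPM in WT and 181, 129, 5.49 and 3.64 CPM in KO. H2-DMa gave 1.54 in experiment 1 (edgeR adjusted p = 4.6e-05) and -1.09 in experiment 2 (edgeR adjusted p = 0.0653). H2-DMb1 gave 0.78 (edgeR adjusted p = 0.000233) and -1.09 (edgeR adjusted p = 0.0272). Ifi30, a thiol reductase of the class II pathway, had a narrower range, 75.2 to 133 CPM.

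Of 7 tested genes of osteoclasts, the cells in which Ctsk is most abundant, 3 rose and 3 fell in experiment 1 (27% and 28.1% of all genes) and 2 rose and 2 fell in experiment 2 (7.52% and 8.29%). Nfatc1, the regulator of osteoclast formation, rose over both by 0.74 (standard error 0.11, edgeR adjusted p = 0.0141), with 27.7, 30.1, 23.5 and 23.7 CPM in WT and 57.2, 57.3, 34.1 and 32.6 CPM in KO. Itgb3 gave 1.67 over both (edgeR adjusted p = 0.0531). Atp6v0d2, a subunit of the proton pump, rose in experiment 1 by 2.16 (edgeR adjusted p = 0.000219) and fell in experiment 2 by 2.58 (edgeR adjusted p = 0.0458). Tnfrsf11a, the receptor RANK, was between 98.5 and 124 CPM. Ctsk itself passed in neither experiment.

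Among the members, log2 CPM of Ctsd and Ctse had a Pearson r of 0.83 over the 8 libraries (Spearman rho 0.81), Ctsd and Ctsl 0.73, and Ctsb and Ctse 0.68. The lowest was that of Ctsb and Ctsz, -0.73. These points share genotype and experiment and are few, and the values are a description. Of 9062 other genes whose mean log2 CPM was 3 or more, the 5 whose log2 CPM was most like that of Ctse were Cnot8 (r = 0.97), Mpst (0.93), Sdcbp (0.93), Myl12b (0.91) and CAAA01180111.1 (0.91). Their range was far narrower than that of Ctse: Cnot8 had 50.2, 54.0, 54.1 and 48.0 CPM in WT and 65.9, 57.7, 65.3 and 63.7 CPM in KO. For Ctsk the 5 were Tnfaip1 (0.97), Tmem171 (0.96), Ska1 (0.96), Ska3 (0.95) and AC092404.2 (0.95).

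Genes within 500 kb of Ctse were read as well. Of 19 found, 13 were tested, and over both experiments 1 rose (Slc41a1) and 3 fell (Ikbke, Fam72a and Nucks1), where 7.12% of all genes were called. In experiment 1, 4 rose and 3 fell (55.1% of all genes called), and in experiment 2 the 1 called fell (15.8%). Rab7b, the nearest tested gene at 13.2 kb, gave 0.05 in experiment 1, 0.36 in experiment 2 and 0.21 over both and was not called. Log2 fold changes of the 13 over both experiments ran from -1.16 to 1.55.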

How the data were processed

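Bulk RNA-seq libraries (stranded mRNA kit) were made from BMDMs of 4 WT and 4 KO samples in 2 experiments. Per the labels, the submitters' processing notes name STAR 2.7.0f, featureCounts of Subread 1.6.4, DESeq2 1.22.1 and GRCm38. The annotation version and strand setting are not given in the sources used here. Raw counts per gene were used as the authors deposited them. Normalized counts, scaled within each experiment, were not used. Libraries are numbered, but the labels do not state that each came from its own mouse or culture, so p-values measure only the spread between these samples, which may be technical. Replicate libraries differed by more than counting noise.

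KO was compared with WT by edgeR 4.0.16 in R 4.3.3 (TMM, filterByExpr by genotype over all 8 libraries, robust quasi-likelihood fit and test) in each experiment, over both with experiment as a term, and for the difference as the product of experiment and genotype. Benjamini-Hochberg adjustment ran over all 14418 genes, and calls were made under 0.05. Standard errors were obtained from each log2 fold change and its F statistic. CPM were TMM-scaled, log2 CPM used a prior count of 2, and FPKM divided CPM by the union of exons in GENCODE M21. The scripts were tested on simulated data. Alternatives were DESeq2 1.42.0, limma-voom (limma 3.58.1), upper-quartile scaling, 2 other filters (at least 1 count in total, or 10 counts in every library), other models, and each library left out. Members and lists were chosen with earlier results of these data known. The rule for naming took all members, Mkl1, Apoe and, per list, the 2 genes with the highest mean CPM and the 2 with the smallest p over both experiments. Markers of cell types are given mainly as sums, and not all that the rule took are named. Alas2, Slc4a1, Cst7, Serpina3g, H2-DMb2, Tfeb, Tfec, Cts7, Ctsg, Napsa and the called neighbours of Ctse were named after their values were seen. Of the 10 members, 7 had RefSeq promoter windows. Figures used matplotlib 3.10.9.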

Additional observations from a re-analysis of the deposited data

Results flagged for a closer look

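For 3 members the effect of KO differed between the experiments by the edgeR test of the product of experiment and genotype. For Ctsl the effect was larger in experiment 2 by 2.40 on the log2 scale, with both experiments' groups apart and in opposite order. For Ctss it was lower in experiment 2, at -1.27. For Ctsd it was larger by 0.50, with KO above WT in both. The same test called 41.6% of all genes. By Dixon's test of the gap to the nearest library over the range of the group, in 20 groups of 4 libraries (10 members, WT and KO), no single library passed the critical value at the 95% level. Each group pools both experiments, so a library that stands apart from its partner need not pass, and Ctse in KO library 6, at 4.27 CPM against 55.9 CPM in library 5, did not.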

How the results depend on the processing

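No paired analysis was possible because WT libraries are numbered 1 to 4 and KO libraries 5 to 8, so the groups share no number. Of 480 alternative fits of single members, 407 kept direction and side of the threshold, 34 lost a call, 22 gained one and 17 reversed. The count of members called in experiment 1 was 5, and it was 1 when the 4 groups were fitted together, 7 by DESeq2 and 5 to 7 with each library left out. In experiment 2 it was 2, and it was 3 by DESeq2, 3 in the fit of 4 groups, 1 with no filter beyond 1 count and 0 to 2 with each library left out (0 without WT 3 or WT 4, 1 without KO 8). Over both experiments it was 1, and it was 3 by DESeq2, 3 for the mean of both effects with the interaction kept, 0 without the filter, 0 by limma-voom, 0 without the experiment term, and 0 to 1 with each library left out. For the difference it was 3, and it was 5 without the filter, 2 with upper-quartile scaling and 1 to 4 with each library left out (1 without WT 1, WT 2 or KO 6). With DESeq2 the members called over both were Ctsd, Ctse and Ctsz.

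All reversals but 1 came from leaving out a library. With each library left out, the log2 fold change of Ctsa in experiment 1 ran from -0.0030 (without KO 6) to 0.12. In experiment 2 they ran from -0.11 (without KO 8) to 0.17 for Ctsa, from -0.25 (without WT 4) to 0.73 for Ctsc, and from -0.078 to 0.11 for Ctsh (below 0 without WT 4 or KO 7). Over both they ran from -0.0020 (without KO 8) to 0.12 for Ctsa, from -0.33 to 0.038 (without WT 3) for Ctsc, from -0.17 to 0.0084 (without KO 5) for Ctsh and from -0.074 to 0.40 for Ctss (below 0 without WT 1, WT 2, KO 5 or KO 6). For the difference they ran from -0.18 to 0.14 for Ctsa (above 0 without KO 6 or KO 7), from -0.41 to 0.12 (without KO 8) for Ctsb and from -0.035 (without WT 4) to 0.13 for Ctsz, and Ctsz gave -0.0051 with upper-quartile scaling. The cause was not tested.

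Over all genes, 1027 were called over both experiments, 4 without the experiment term, 2492 by DESeq2, 4811 for the mean of both effects, and 243 to 1100 with each library left out. In experiment 2, 2279 were called, 4899 in the fit of 4 groups, and 232 to 1388 with each library left out. In experiment 1 the counts were 5974 to 9117 around 7948. With a library left out, the lone library of its arm is assumed to vary like the other libraries. Ctse had 21 to 63 counts per WT library, which limits the precision of its fold change.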
